A study of Glycine max and Glycine soja with 189 samples.

Results

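The loci described here are the 200 soybean loci whose transcripts shifted most in their share of the locus between photoperiods and times of day. For each locus with 2 or more transcripts, the RPKM (reads scaled to the length of the transcript and to the mapped reads of the library) of every transcript was averaged over the 21 libraries of each of 9 classes, made of 3 photoperiod treatments and 3 time points. The share of a transcript is its class mean over the sum of the class means of its locus, and the score of a locus is the largest range of any share over the 9 classes, in percentage points. Loci with a sum of at least 5 RPKM in all 9 classes were ranked by the score. Of 54175 loci in the table, 11790 had 2 or more transcripts and 5309 also passed the minimum. After 1 locus that the paper names was left out, 5308 loci with 14116 transcripts were ranked, and the 200 with the largest score, 3.77% of those ranked, are the members, chosen by the measured class shares themselves, with 580 transcripts. The transcript with the largest range is called the lead transcript; in a locus of 2 transcripts both have the same range, and which of the pair is the lead carries no meaning.

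The libraries were 3 biological replicates of each of 63 groups, from 7 genotypes in 3 photoperiod treatments at 3 time points. The genotypes were the cultivar Clark (e1E2E3E4e5E7), the cultivar Williams 82 (E2), wild soybean *Glycine soja* with no alleles given, and 4 near isogenic lines in the Clark background that differ at maturity (E) loci. These lines were L65-3366 (E1E2E3E4e5E7), L66-432 (e1e2E3E4e5E7), L74-441 (e1E2e3E4e5E7) and L92-1195 (e1E2e3E4E5E7), called L65, L66, L74 and L92 below, and each is 1 inbred line. SD plants had 10 hours of light and LD plants had 16 hours, and LD-SD plants were moved to SD for 5 days after 21 days in LD. Plants were sampled 26 days after planting at 6:30 (T1), 14:30 (T3) and 22:30 (T5). The labels name the first trifoliate leaf as the tissue, whereas the study's methods describe the shoot above the cotyledon, and the locus identifiers of the members had no counterpart in the gene table used here, so neither tissue markers nor gene names could be matched.

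A plant gene can give several mature transcripts through alternative splicing, alternative start sites or alternative polyadenylation, and these can differ in the protein they encode or in how stable they are. Alternative splicing in leaves is known to respond to light and to the circadian clock, and several clock genes of *Arabidopsis* have isoforms that change over the day. A change in the share of a transcript is separate from a change in the level of its locus, since the share is taken within the locus. In RNA from whole organs, fewer cells of a type and less RNA per cell cannot be told apart.

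The libraries had 5587611 to 20862913 recorded reads, with a median of 10796597 over the 188 libraries with a record, of which 68.4% to 89.5% were mapped. The reads recovered from the RPKM values summed to 99.6% to 99.9% per library of the mapped reads by which the table is scaled. Of all libraries, 7 were doubtful. Against genotype markers, which could be checked for 3 genotypes, 6 libraries went against their labels: the library labelled Williams 82 in LD at T1 replicate A, the library labelled L65 in LD at T1 replicate A, which carried Williams 82 markers, the libraries labelled L74 in LD-SD at T3 replicate B and at T5 replicates B and C, and the library labelled L66 in LD-SD at T5 replicate B, which carried L74 markers. The remaining library, of L92 in LD-SD at T5, had no certain replicate letter, and its profile over all transcripts correlated better with the LD-SD T3 class (0.938) than with its own (0.871). In 3 more libraries the profile correlated better with SD at the same time point than with the LD-SD class of the label, by a smaller gap. The values were 0.937 and 0.935 for L66 at T1 replicate C, 0.895 and 0.881 for *Glycine soja* at T1 replicate C, and 0.892 and 0.864 for *Glycine soja* at T5 replicate A. Without the 7 libraries, 182 of the 200 members stayed among the 200 loci with the largest score, and 175 without the 3 others as well.

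Most members did not switch from one transcript to another. Their scores ran from 4.90 to 32.9 percentage points with a median of 5.81, against a median of 2.16 over all 5308 ranked loci. A score of at least 10 points was reached by 16 members, at least 15 points by 6 and at least 20 points by 2. In 95 of the 200 members (47.5%, ranked loci 26.8%), more than 1 transcript held the largest share in some class. The leading transcript changed by at least 1 point on both sides in 76 members (38%, ranked loci 12.1%). In 19 members (9.5%, ranked loci 0.358%) it changed by at least 5 points. There, each of a pair of transcripts led the next one by 5 points or more in some class. The name isoform switch therefore goes against the values for most of the list, and the loci are called members of the list with the largest share ranges below. The threshold itself was no step: Glyma14g34200 and Glyma03g16620 lay just inside with 4.91 and 4.90 points, and Glyma09g04930 and Glyma05g34490 lay just outside with 4.89 and 4.88 points.

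The spread between libraries was of the same size as most scores. The SD of the lead transcript share over the 21 libraries of a class, pooled over classes, had a median of 4.73 points in the members and 2.96 points in all ranked loci. The score was above 1 SD in 158 members (79%, ranked loci 16.1%) and above 2 SD in 48 (24%, ranked loci 1.41%). Both counts were unchanged without the 7 doubtful libraries, and became 154 and 50 without the 3 libraries nearer to SD as well. In reads, the SD of the share between libraries had a median of 4.61 points in the members, where counting error alone gives a median of 4.03 points, and these were 2.92 and 2.77 points over all ranked loci. In 7 members, all 21 libraries of the class with the highest share lay above all 21 libraries of the class with the lowest, and this held for 0.207% of all ranked loci. Since the rule chose the members by these class shares, the counts are a description and carry no test. The plot of range against spread shows both lines, which use the SD of single libraries, whereas the score is a difference between means of 21 libraries.

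**Figure D1:**
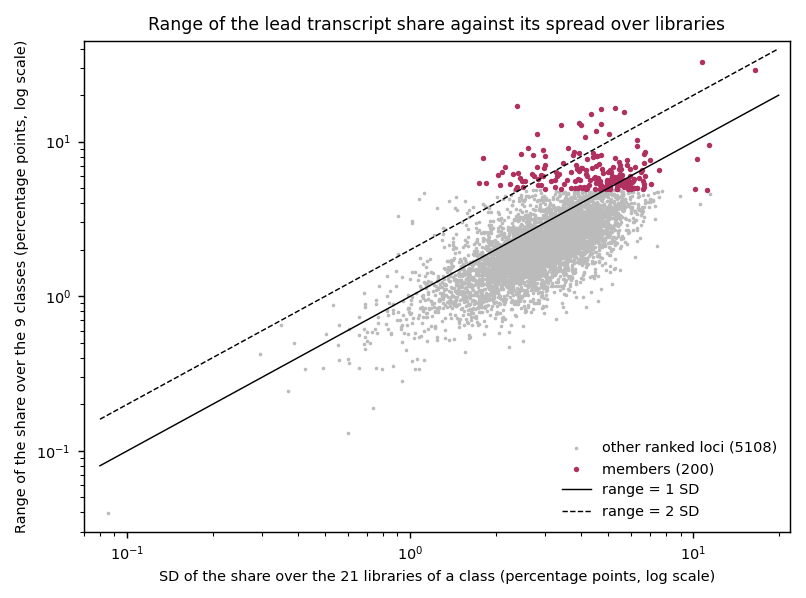
Range of the lead transcript share over the 9 classes (y, percentage points, log scale) against its SD over the 21 libraries of a class (x, percentage points, log scale), 1 point for each of 5308 ranked loci, with the 200 members in red. The solid and dashed lines mark a range of 1 and 2 SD of single libraries, and 158 members lie above the solid and 48 above the dashed line.

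The members were expressed at lower levels than the other ranked loci and rested on fewer reads. The mean RPKM of the locus had a median of 11.3 in the members and 15.7 over all ranked loci, and the median library held 124.5 reads on a member and 294 reads on a ranked locus. Of the members, 149 (74.5%) were under 10 RPKM in their lowest class, against 46.4% of all ranked loci, and only 11 members reached 20 RPKM in every class, against 1179 ranked loci. The sum of the locus changed by at least 2-fold between classes in 84 members (42.0%) and in 36.7% of ranked loci. Members were thus low loci more often than ranked loci were, and the part of counting error in the choice of single members was not tested beyond these values.

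The members also differed in structure from the ranked loci. The number of transcripts and the mean share bear on the rule itself, which takes the largest range over the transcripts of a locus. The lengths were no criterion of the rule, but at the same RPKM a shorter transcript rests on fewer reads. The part of this in the choice of members was not tested. The members had a median of 3 transcripts, against 2 over all ranked loci, and 99 of them (49.5%) had 2 transcripts, against 61.8%. The longest transcript of a locus was 1.32 times as long as the shortest in the median member and 1.10 times in the median ranked locus. Lead transcripts had a median length of 1290.5 bases in the members and 1850 bases over all ranked loci. Of the members with 2 transcripts, 71 of 99 (71.7%) had a mean lead share between 40% and 60%, against 88.3% of the ranked loci with 2 transcripts, so most shares lay near an equal division of the locus. How reads that fit more than 1 isoform were assigned is not given, and that assignment can set a share. Its part in these near-equal shares was not tested. Members lay on all 20 chromosomes, with 5 to 15 on each, or 2.51% to 5.58% of the ranked loci of a chromosome.

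SD at T3 was the class most often at one end of the lead share in the members, which describes the class shares that the rule used. In 84 members (42.0%) the highest or the lowest lead share fell in SD at T3, as it did in 26.9% of all ranked loci. LD at T3 held an extreme in 20 members (10.0%) and in 18.9% of ranked loci. For LD-SD at T1 the values were 64 members (32.0%) and 26.3% of ranked loci. The highest share fell in SD at T3 in 41 members and the lowest in 43. No direction can be read from this split, since the lead of a locus of 2 transcripts is arbitrary. In 43 members (21.5%) the highest and lowest classes belonged to the same photoperiod, in 46 (23.0%) to the same time point, and in 111 (55.5%) they differed in both. Over all ranked loci these percentages were close, at 24.4%, 24.4% and 51.2%.

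**Figure D2:**
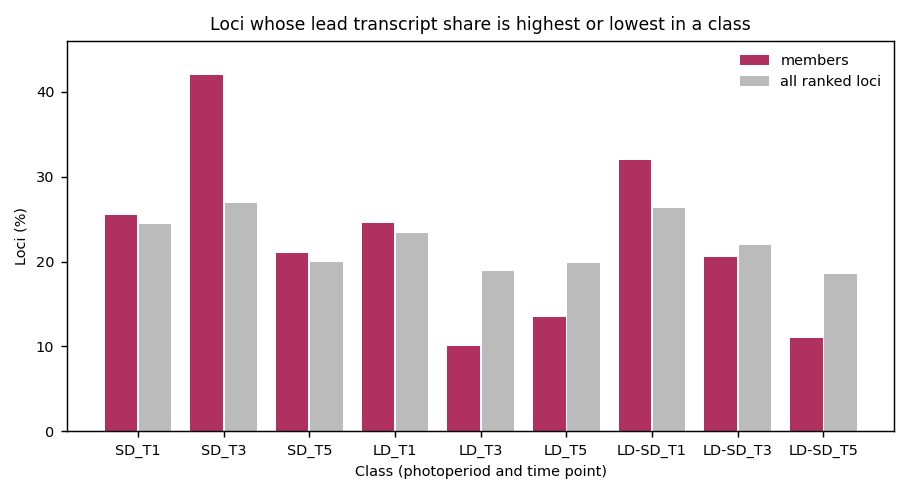
Percentage of loci (y) whose lead transcript share was highest or lowest in each of the 9 classes (x), for the 200 members (red) and all 5308 ranked loci (grey). SD at T3 is an extreme in 42.0% of members and LD at T3 in 10.0%.

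Within a photoperiod, the lead share ranged over the 3 time points by at least 5 points in 68 members in SD, in 27 in LD and in 37 in LD-SD, and in 98 members in at least 1 of them. SD and LD differed by at least 5 points at 1 or more time points in 63 members, with 31 at T1, 31 at T3 and 10 at T5. All of these counts were the same over all ranked loci, since such a range by itself exceeds the lowest score of a member, 4.90 points. Of ranked loci they make 1.28% in SD, 0.509% in LD, 0.697% in LD-SD and 1.85% in at least 1 photoperiod. For SD against LD they make 1.19%. The counts thus restate the rule. The range over time was larger than the largest SD to LD difference in 142 members (71.0%), close to the 72.9% of all ranked loci. The plants moved to SD for 5 days had a share nearer to SD than to LD in 137 members (68.5%) at T1, 95 (47.5%) at T3 and 86 (43.0%) at T5. Over all ranked loci these percentages were 52.2%, 48.2% and 47.5%. Without the 7 doubtful libraries, the counts of 98, 63 and 137 became 105, 65 and 134, and without the 3 libraries nearer to SD as well they became 103, 65 and 135.

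The 7 members without overlap between their extreme classes are described first, and 4 of them (Glyma01g03150, Glyma07g10170, Glyma06g02580 and Glyma16g05350) were chosen after their values were seen. All 7 stayed without overlap when the 7 doubtful libraries were left out, and with the 3 libraries nearer to SD left out as well. Values in a class are given as the lowest, median and highest library.

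Glyma12g04701 carried the clearest change of the leading transcript and had the highest median of reads per library among the members. Its transcripts, of 1080 and 871 bases, divided a locus with a median of 2873 reads per library. The share of Glyma12g04701.1 in LD-SD at T1 was 55.0%, 58.4% and 62.4% in the lowest, median and highest library. In SD at T3 these values were 39.2%, 41.5% and 45.2%, so every library of LD-SD at T1 was well above every library of SD at T3. The share of class means was 58.7% and 41.6% in the same classes, and Glyma12g04701.2 led in SD at T3 and T5, in LD at T1 and T3 and in LD-SD at T3. Over the day, the share fell from 53.1% at T1 to 41.6% at T3 and was 44.2% at T5 in SD. In LD it was 47.4%, 46.3% and 52.6% at T1, T3 and T5, which put the highest LD share at T5. In LD-SD it was 58.7%, 44.1% and 52.9%, a range over time of 14.6 points. The locus itself ran from 181.3 RPKM in SD at T3 to 552.5 RPKM in SD at T5, so classes of low share held both its lowest and its highest level. The doubtful library of L92 in LD-SD at T5 had a share of 39.0%, the lowest of its class, and without the doubtful libraries the lowest share of that class was 48.7% and its share of class means 53.5%.

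Glyma17g37270 had the largest rise of a share at T3 both in SD and in LD-SD against LD. Its score of 16.4 points was the range from LD at T3 up to SD at T1, and the libraries of these classes did not overlap. The share of Glyma17g37270.2, the longer transcript with 3166 bases, was 80.6%, 86.3% and 93.6% in SD at T3. It was 61.7%, 73.0% and 79.4% in LD at T3, and no library of one class reached the other. In LD-SD at T3 it was 77.3%, 83.4% and 89.0%, which overlapped with SD and, in its lowest libraries, with LD. From the class means, the share was 86.1% in SD, 84.0% in LD-SD and 71.8% in LD at T3, while at T5 LD-SD with 76.2% was close to LD with 75.2%. The 2435-base transcript Glyma17g37270.3 was the lesser one in every class, so the leading transcript did not change. The locus changed by only 1.56-fold over the classes, from 13.4 to 20.9 RPKM.

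Glyma02g17351 had the largest rise of a share in LD-SD against LD at T1. The share of Glyma02g17351.1, with 573 bases against 760 for the other transcript, was 40.1%, 53.6% and 62.9% in LD at T1. In LD-SD at T1 it was 63.2%, 68.8% and 71.3%, with every library above those of LD. SD at T1 with 62.7%, 65.3% and 72.8% was also high, and its lowest library was just under the highest of LD. At T3 the order was reversed, with a share of class means of 55.5% in LD-SD, 59.8% in SD and 62.1% in LD. The locus had 27.7 RPKM in LD at T1 and 96.3 RPKM in LD-SD at T1. Of the doubtful libraries, that labelled L74 in LD-SD at T3 had 68.6%, the highest of its class, and without the doubtful ones the highest there was 64.1%.

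Glyma01g03150 was higher at T3 than at T1 in all photoperiods and differed most between SD at T3 and LD-SD at T1. The share of Glyma01g03150.1 was 54.7%, 61.4% and 66.4% in SD at T3. In LD-SD at T1 it was 44.2%, 47.8% and 50.5%, with no overlap. The share was higher at T3 than at T1 in SD (60.6% and 49.8% of class means), in LD (55.3% and 52.8%) and in LD-SD (60.2% and 47.4%). The locus was lowest where the share was high, at 7.11 RPKM in SD at T3 and 57.3 RPKM in LD-SD at T1.

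Glyma07g10170 was high at T1 in SD and after the shift. The share of Glyma07g10170.1 was 36.5%, 43.6% and 46.6% in LD-SD at T1. It was 24.6%, 29.8% and 35.5% in LD at T3, with no overlap between these classes. At T1 the share of class means was 42.5% in SD, 43.2% in LD-SD and 35.6% in LD, and at T3 it was 32.9%, 33.8% and 30.2%. At T5 the order was another, with 30.5% in SD, 34.0% in LD-SD and 34.6% in LD. The SD between single libraries of these classes was 2.60 to 4.05 points, and the gaps between LD and the others at T3 lay within or near it. The gaps are between classes of 21 libraries, so this SD is not their error.

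Glyma06g02580 dropped at a single class. The share of Glyma06g02580.1 was 54.3%, 62.9% and 67.2% in SD at T3 and 68.6%, 71.3% and 75.1% in SD at T5. The class means gave 62.3% in SD at T3 and between 67.7% and 71.5% in the 8 other classes. The locus was also lowest in SD at T3, at 19.5 RPKM.

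Glyma16g05350 combined a small range of the share with a large one of the level. The locus rose from 22.5 RPKM in SD at T1 to 1536.9 RPKM in LD at T3, a 68.4-fold range. The share of Glyma16g05350.1 was 59.7%, 64.0% and 67.7% in LD-SD at T3. In SD at T5 it was 70.7%, 72.9% and 73.7%, above every library of LD-SD at T3. The 3 classes with the highest level, LD at T3, SD at T5 and LD-SD at T5, had shares of class means of 72.2% to 72.6%, and the 3 with the lowest, all at T1, had 67.5% to 69.6%. LD-SD at T3, with the lowest share of 64.7%, lay between them in level at 217 RPKM. Also between them were LD at T5, with 72.5% at 115.85 RPKM, and SD at T3, with 68.9% at 148.5 RPKM.

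**Figure D3:**
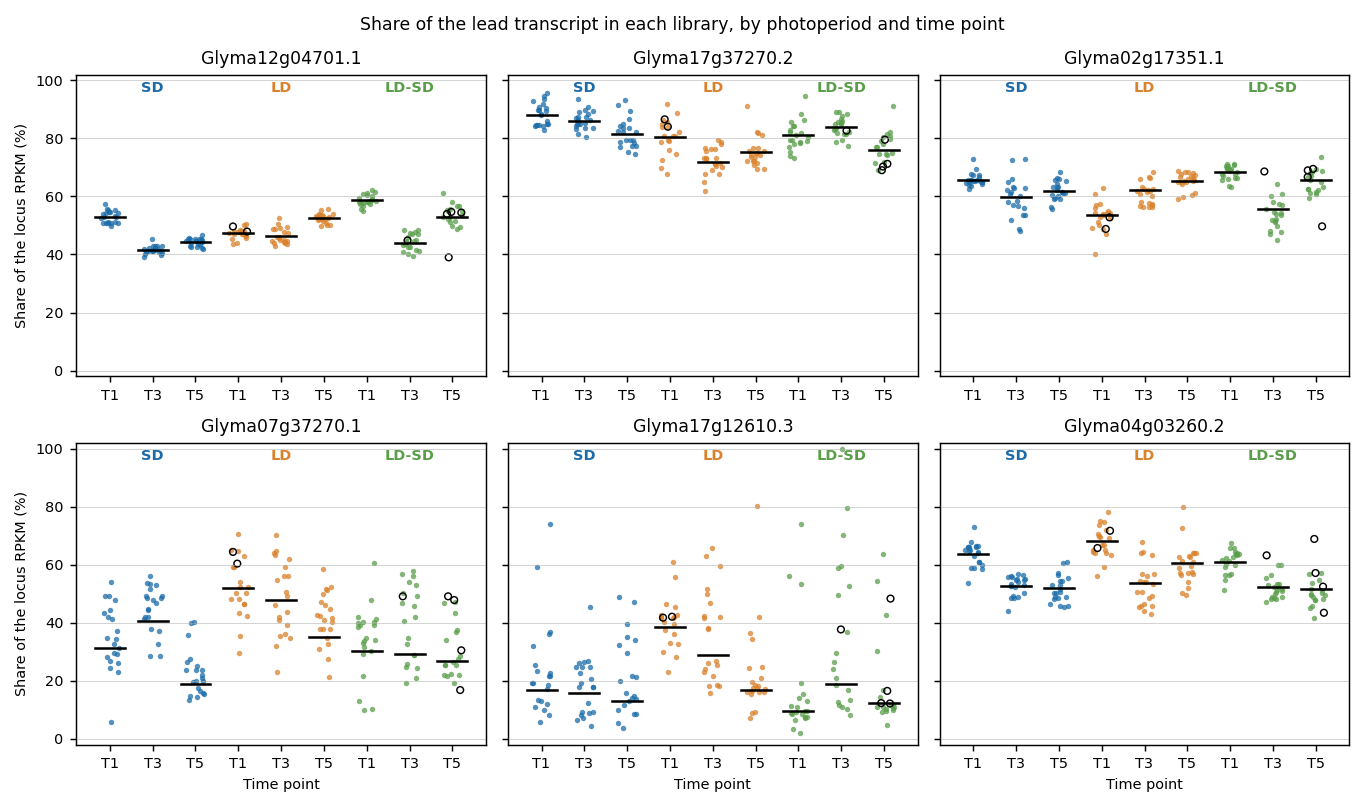
Share of the lead transcript in each library (y, % of the locus RPKM) by time point within SD (blue), LD (orange) and LD-SD (green), for 6 members. Each point is 1 of 21 libraries of a class, open points are the 7 doubtful libraries, and bars are the share of class means, for Glyma12g04701.1 from 41.6% in SD at T3 to 58.7% in LD-SD at T1. Glyma12g04701.1 has tight classes, whereas Glyma17g12610.3 reaches from 1.9% to 100% between libraries.

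The 2 highest scores belonged to loci with wide spread and, in several classes, few reads. Glyma07g37270 ranked first, with 32.9 points and an SD of 10.7 points between libraries. The share of Glyma07g37270.1 was 29.5%, 52.4% and 70.7% in LD at T1 and 13.3%, 20.9% and 40.1% in SD at T5. These classes overlapped, although the class means were 51.9% and 19.0%. At T5 the share of class means was 19.0% in SD, 26.7% in LD-SD and 35.2% in LD, the largest fall of SD against LD at that time, and at T3 it was 29.1% in LD-SD and 47.96% in LD, the largest fall of the shift. The locus had a median of 56 reads per library, a mean of 5.81 RPKM in its lowest class and of 61.5 RPKM in SD at T5. The locus was highest in *Glycine soja*, with a mean of 51.2 RPKM against 7.57 to 18.3 RPKM in the other genotypes, and without *Glycine soja*, without replicate A or with class medians the locus fell under the minimum and was not ranked.

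Glyma17g12610 ranked second with 28.9 points, and its SD between libraries was 16.6 points. The share of Glyma17g12610.3, the longest of 4 transcripts with 741 bases, was 23.0%, 41.6% and 61.0% in LD at T1. It was 1.9%, 9.4% and 73.97% in LD-SD at T1, so the classes overlapped although the medians lay far apart. SD at T1 gave 5.7%, 19.2% and 74.1%. The median library had 139 reads on the locus in LD at T1, 173 in LD-SD at T1 and 28 in SD at T1. In LD-SD at T3, where the median library had 14 reads on the locus, the highest library was at 100%, the share of class means was 18.8% and the mean of the library shares 35.6%. The locus was lowest there, at 6.41 RPKM, and highest in LD-SD at T5, at 57.4 RPKM, and without replicate A or with class medians it fell under the minimum and was not ranked. The mean share over 27 libraries was 42.3% in *Glycine soja* and 18.6% to 28.9% in the other genotypes. The log2 ratio of Glyma17g12610.3 to the rest of the locus differed among genotypes (adjusted p 1.12e-06, limma).

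The other members named by the size of their change overlapped between their extreme classes but moved in 1 direction in all 7 genotypes. Glyma04g03260.2, the longest of 3 transcripts with 2845 bases, was higher at T1 than at T3 in every photoperiod, with shares of class means of 63.6% and 52.7% in SD, 68.1% and 53.5% in LD, and 60.9% and 52.2% in LD-SD. At T5 it was 60.4% in LD and 51.5% in LD-SD, the largest fall of the shift at that time, with libraries from 49.7% to 79.98% and from 41.7% to 68.8%. The 68.8% was the doubtful library of L92, and without the doubtful libraries the highest in LD-SD at T5 was 57.1% and the share of class means 50.1%. Its median was 228 reads on the locus per library.

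Glyma10g40730.3 was higher in SD than in LD at T5, with 42.0%, 51.0% and 63.02% in SD and 31.0%, 39.3% and 48.5% in LD. At T3 its share of class means was 55.1% in SD, 47.9% in LD and 39.6% in LD-SD, so plants moved to SD were farther from SD than LD plants were. At T1 the 3 photoperiods lay between 40.3% and 44.2%.

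Glyma12g32460.1, with 2679 bases against 1097 for the other transcript, had the largest rise of SD over LD at T1. It gave 48.9%, 59.4% and 68.2% in SD and 35.1%, 45.7% and 54.9% in LD, and the leading transcript changed from Glyma12g32460.1 in SD to Glyma12g32460.2 in LD. LD-SD was between them at T1, with a share of class means of 52.7%, and at T5 the photoperiods lay between 54.3% and 55.6%.

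Glyma07g32661 divided its reads between transcripts of 4889 and 1560 bases at a nearly constant level of 13.1 to 16.0 RPKM. Glyma07g32661.1 gave 48.8%, 55.1% and 62.7% in SD at T1 and 35.5%, 41.6% and 51.2% in LD-SD at T3. It led in SD at T1, in LD-SD at T1 and in LD at T5, and Glyma07g32661.2 led at T3 in all 3 photoperiods.

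Glyma11g18050 had the largest rise of the shift over LD at T5, from 28.4% to 33.7% of class means. Its libraries ran from 8.5% to 66.2% in LD and from 13.8% to 55.7% in LD-SD, and the locus had a median of 21 reads per library, so this rise lay within the spread.

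The rule compared no genotypes, but its class means were taken over all of them, so that a genotype with a high level could weigh on the score, and 156 of the 200 members stayed among the top 200 without *Glycine soja*. The lead share moved from the lowest to the highest class in the same direction in all 7 genotypes in 128 members, in 6 genotypes in 58, in 5 in 12 and in 4 in 2. Over all ranked loci, 24.4% moved in the same direction in 7 genotypes and 40.02% in 6, and since the extreme classes were taken from the mean over the same genotypes, these counts are a description. In Glyma12g04701 the difference between its extreme classes ran from 16.3 points in Clark to 19.6 points in L66. In Glyma17g37270 the difference of SD at T1 from LD at T3 ran from 11.4 points in L74 to 19.6 points in *Glycine soja*. Glyma17g12610 was above 0 in 6 genotypes and fell by 1.82 points in *Glycine soja*. The members as a list were less stable within genotypes: the same rule applied to 1 genotype alone found 53 to 60 of the 200 members.

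**Figure D4:**
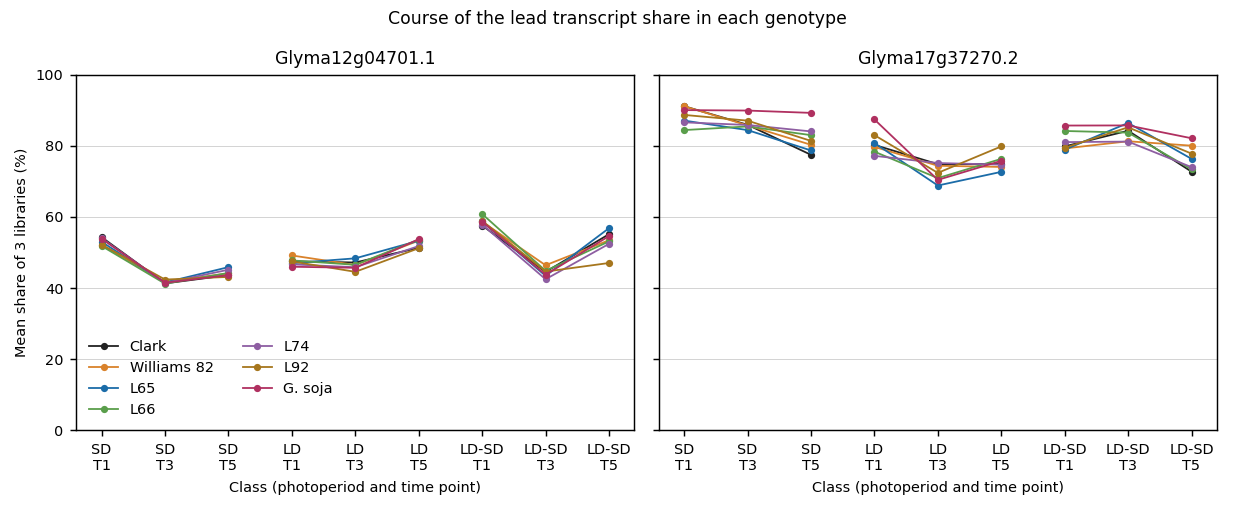
Mean lead transcript share of 3 libraries (y, % of the locus RPKM) in each class (x) for 7 genotypes, 1 line each, in Glyma12g04701.1 and Glyma17g37270.2. All 7 lines of Glyma12g04701.1 are lowest at T3 in SD and LD-SD, and the low T5 value of L92 in LD-SD includes the library at 39.0%.

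Whether the course over the 9 classes differed among genotypes was tested with limma on the log2 ratio of the lead transcript to the rest of the locus, with 1 RPKM added to each side. No member passed an adjusted p (Benjamini-Hochberg over 5308 loci) below 0.05, and neither did any ranked locus (0%). At an unadjusted p below 0.05 there were 10 members (5%) and 285 ranked loci (5.37%). The smallest adjusted p of a member in limma was 0.151, for Glyma19g45170, followed by 0.372 for Glyma03g33460. In Glyma19g45170 the share of Glyma19g45170.2 in SD at T3 ran from 23.3% in L74 to 42.4% in Williams 82 as means of 3 libraries, and in LD at T3 from 25.1% in L65 to 41.9% in L74. These misses do not show that the genotypes had the same course.

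Averaged over the 9 classes, the log2 ratio of the lead transcript to the rest of the locus differed among genotypes in 33 of the 200 members (16.5%). This was by the limma F-test at an adjusted p below 0.05, against 4.86% of all ranked loci. The rule averaged over all genotypes, so a genotype apart in level and share could raise a score. The higher percentage in the members is therefore a description. Most of the differences were those of *Glycine soja*. Against Clark, 25 members passed in *Glycine soja* (12.5%, ranked loci 4.28%), 12 with a higher log2 ratio (ranked loci 2.15%) and 13 with a lower one (ranked loci 2.13%). The 12 include Glyma14g34200, described below, whose ratio gives no share. Williams 82 differed from Clark in 3 members (ranked loci 0.301%), L65 in 1 (0.0754%), L92 in 1 (0.0188%), L66 in 0 (0.0377%) and L74 in 0 (0.0565%). At an unadjusted p below 0.05 there were 12 members in L66 (6%, ranked loci 5.50%) and 10 in L74 (5%, ranked loci 4.69%), near the shares of all ranked loci. Of the 33 members, 23 also passed for *Glycine soja* against Clark, 3 for another genotype (1 of them for both) and 8 for none of the 6 comparisons, which share the Clark libraries. Without *Glycine soja*, 3 members and 30 ranked loci differed among the 6 remaining genotypes, and without the 7 doubtful libraries there were 33 members, and 31 without the 3 libraries nearer to SD as well. Leaving out replicate A, B or C gave 20 to 23 members, with the lowest count without replicate B. With the share itself in place of the log2 ratio, 28 members and 213 ranked loci differed among genotypes, and 25 of these members were among the 33.

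The log2 differences of *Glycine soja* from Clark in these 25 members had a median size of 0.26 and ran from 0.12 to 1.63. All libraries were aligned to Williams 82 transcripts, and the reads mapped were 86.7% in the median library of *Glycine soja* and 88.2% in the median library of the other genotypes. The part of this in the differences was not tested. In 2 of the 25 members the locus mean differed by at least 2-fold between *Glycine soja* and Clark.

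Glyma15g39090 had the smallest adjusted p among genotypes (1.93e-64, limma). The share of Glyma15g39090.6, the longest of its 6 transcripts with 2324 bases, was 25.4%, 28.3% and 40.1% in the lowest, median and highest of 27 libraries of *Glycine soja*. In Clark it was 43.1%, 58.8% and 64.8%, and every library of the other 6 genotypes was above every library of *Glycine soja*. The difference from Clark was -1.50 on the log2 scale (SE 0.05, adjusted p 3.23e-53, limma), and among the genotypes without *Glycine soja* the locus did not pass (adjusted p 0.897, limma). The RPKM of Glyma15g39090.6 itself was 7.11 ± 5.74 in *Glycine soja* and 7.45 ± 5.74 in Clark (SD, n = 27 libraries), while the 5 other transcripts had means of 2.90 to 4.39 RPKM in *Glycine soja* and 0.89 to 1.38 RPKM in Clark. The locus scored 9.57 points with all genotypes and 5.49 points without *Glycine soja*. Rank 200 lay at 5.14 points without *Glycine soja*, so the locus stayed in the list. Its share moved in the same direction in only 4 of 7 genotypes.

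Glyma14g34200 passed among genotypes with an adjusted p of 2.12e-45 (limma) and was nearly without reads in *Glycine soja*. The locus sum was 0, 0.138 and 0.776 RPKM in the lowest, median and highest library of *Glycine soja*, with at most 5 reads. It was 10.6, 14.9 and 21.5 RPKM in Clark, and the means of the 6 cultivated genotypes lay between 14.7 and 15.5 RPKM. With the locus near 0, the ratio in *Glycine soja* is by construction set by the 1 RPKM added to each side. The log2 difference from Clark was 1.63 (SE 0.08, adjusted p 1.74e-37, limma), whereas on the share itself the difference was -0.0397 on a scale of 0 to 1 with an adjusted p of 0.705 (limma), and the test among genotypes gave an adjusted p of 0.942 on the share itself and 0.905 without *Glycine soja*. No share of its transcripts can be read in *Glycine soja* at this depth. Glyma03g16620, at the edge of the list, was also low there, with a mean of 2.04 RPKM against 13.4 to 15.1 RPKM in the other genotypes, and some of its library shares lay at 0% and at 100%.

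Glyma03g33460 differed from Clark in 3 cultivated genotypes. The share of Glyma03g33460.1, the shortest of 3 transcripts with 1742 bases, was 16.4%, 27.9% and 37.6% in Clark. In Williams 82 it was 25.1%, 32.2% and 42.8%, a log2 difference from Clark of 0.33 (SE 0.06, adjusted p 0.000127, limma). It was 15.8%, 23.0% and 42.8% in L65 and 11.2%, 23.0% and 32.2% in L92, with log2 differences of -0.30 (adjusted p 0.00262) and -0.35 (adjusted p 0.000144, limma). All 4 genotypes overlapped. The highest L65 library, at 42.8%, was the doubtful one with Williams 82 markers, and the lowest Williams 82 library, at 25.1%, was the doubtful one of that genotype. Without the 7 doubtful libraries, the log2 difference of L65 was -0.33 (adjusted p 8.15e-05, limma). Without replicate C it was -0.24 in L65 (adjusted p 0.577) and -0.31 in L92 (adjusted p 0.195, limma), and without replicate B it was -0.35 in L65 (adjusted p 0.144). On the share itself the difference of L65 was -0.039 on a scale of 0 to 1 (adjusted p 0.156), so these calls were lost.

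Glyma16g24560.3 was lower in Williams 82. Its share was 21.7%, 36.9% and 49.8% there and 33.7%, 44.3% and 53.5% in Clark, which overlapped. The log2 difference was -0.37 (SE 0.07, adjusted p 0.000208, limma), and it was -0.28 without replicate C (adjusted p 0.265), which ended the call. *Glycine soja* had 29.3%, 40.9% and 52.9%.

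**Figure D5:**
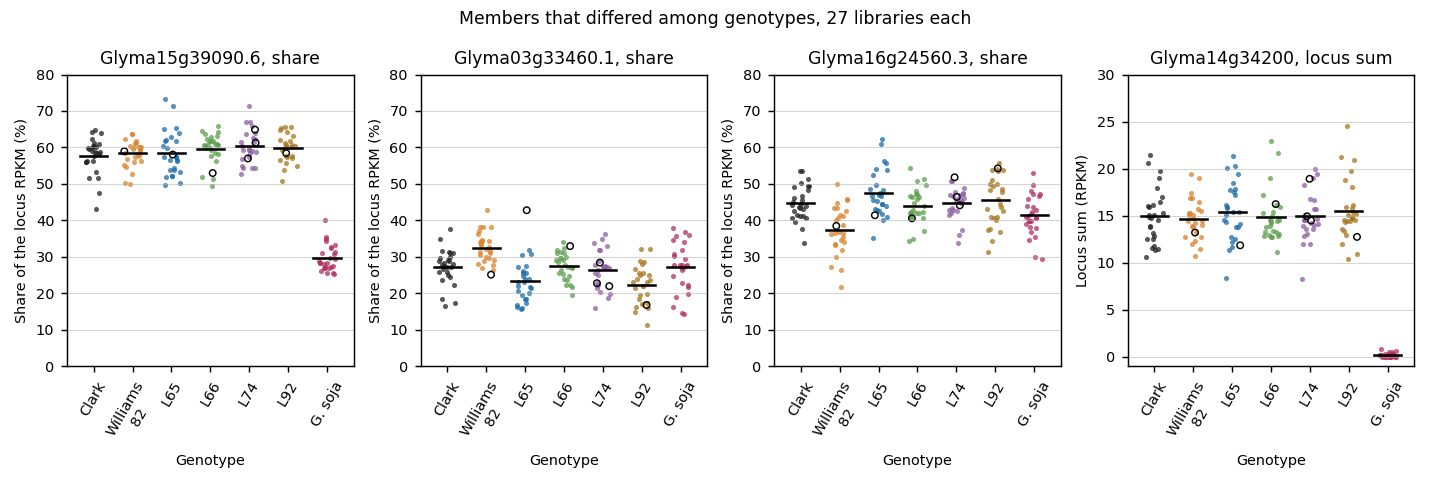
Share of the lead transcript (y, % of the locus RPKM) in Glyma15g39090.6, Glyma03g33460.1 and Glyma16g24560.3, and the locus sum (y, RPKM) of Glyma14g34200, by genotype (x). Each point is 1 of 27 libraries of a genotype, open points are the 7 doubtful libraries and bars are means. *Glycine soja* lies between 25.4% and 40.1% in Glyma15g39090.6, under all other libraries, and at or under 0.776 RPKM in Glyma14g34200.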

How the data were processed

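The authors made the libraries from total RNA, used Bowtie for the alignment to the transcripts of Williams 82, for *Glycine soja* too, and tallied the reads with an in-house program. The deposited table holds 1 RPKM value per transcript and library. The Bowtie version, and how a read that fits more than 1 isoform was assigned, are not given in the sources used here, and that assignment can set a share. Of 73320 transcripts, 1 was infinite in every library and was left out, and 1712 are listed at 0 in every library. No column of another sample was in the table. Depth and transcript lengths were recovered from RPKM as whole reads within a tolerance of 0.02 reads, which held for 96.8% to 99.8% of low values per library.

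The members and lists were chosen with earlier results of these data known. Photoperiod and time chose the members, so only genotype was tested. The class means of the rule took in all genotypes, so the genotype test was not fully apart from the choice. Without *Glycine soja*, 193 of the 200 members still passed the minimum. The limma package (3.58.1, R 4.3.3) was fitted to log2((lead transcript RPKM + 1) / (rest of the locus RPKM + 1)) with 63 group means, eBayes with trend and Benjamini-Hochberg adjustment over 5308 loci at 0.05. The 1 RPKM added to each side understates share changes of low loci on this scale. Where the level of a locus differs between genotypes, it can also give a difference that the share does not show. Glyma14g34200 in *Glycine soja* is such a case. The fit was tested on simulated data with known changes. The genotype test found 86% of log2 changes of 0.2 in 1 genotype and 100% of changes of 0.5. The test of the course found 16% of log2 changes of 0.5 and 85% of changes of 1, each in 1 genotype and class. Groups came from the deposited labels, and replicates from their letters. Named loci were the 6 with the largest score, the largest rise and fall of SD and of LD-SD against LD at each time point, the largest range over time in each photoperiod, the 4 largest changes of the leading transcript, the 2 smallest adjusted p among genotypes and of the interaction, the largest difference from Clark for each genotype past the threshold, and the 2 loci on each side of rank 200. The remaining steps were run in Python 3.11.15 (matplotlib 3.10.9, numba 0.67.0, pandas 2.3.3, numpy 2.4.6). Alternatives covered the pseudocount, the minimum, the share itself, another scaling, the trend, the replicate letters, the doubtful libraries and *Glycine soja*, and the counts without the doubtful libraries, and all results without the 3 libraries nearer to SD, were chosen after seeing the data.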

Additional observations from a re-analysis of the deposited data

How the results depend on the processing

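Both the list and the genotype counts depended on the processing. Of the 200 members, 156 stayed among the top 200 without *Glycine soja*, 105 with class medians, 74 with the range of the log2 ratio, 11 with a minimum of 20 RPKM (all that passed it) and 2 with no minimum, while leaving out replicate A, B or C in turn kept 124 to 139. The counts of loci that differed among genotypes, 258 in all and 33 members, were 100 and 3 with a minimum of 20 RPKM (1179 loci, 11 members tested), 613 in all with no minimum (11197 loci tested), 30 and 3 without *Glycine soja*, and 147 to 169 and 20 to 23 with 1 replicate letter left out. With no minimum, 5 loci and 0 members differed in their course among genotypes. Against Clark, a minimum of 20 RPKM gave 6 loci for Williams 82, 1 each for L65, L66 and L74, and 92 for *Glycine soja* with 2 members, and 0 members for Williams 82, L65 and L92. No minimum gave 40 loci for Williams 82, 8 for L74, 2 for L92 and 569 for *Glycine soja*, and the share itself gave 0 members for L65. With 1 replicate letter left out, the loci were 9 to 14 for Williams 82, 1 to 5 for L65, 1 to 3 for L66, 1 to 3 for L74, 0 to 1 for L92 and 144 to 160 for *Glycine soja*, and the members 1 to 3 for Williams 82, 0 to 1 for L65 and 0 to 1 for L92. For Glyma14g34200, the difference of *Glycine soja* from Clark was -0.0397 on the share itself, the opposite sign of the log2 value. The causes were not tested beyond the numbers of loci tested. Lost calls of single loci stand with them in the report.

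The replicate letters did not pair the samples: deviations from group means had a mean correlation of 0.0055 over 561 pairs of the same letter, from -0.058 to 0.092. With the letter as a replicate block, 260 loci and 31 members differed among genotypes. No named call was lost under the block. Depth limits the members: at a median of 124.5 reads per library, counting error alone gave a median SD of 4.03 points for the share in 1 library.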
